A study of Mus musculus with 8 samples.

Results

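The genes described here are 10 of the 54837 in a count table of mouse mammary basal cells, and they encode the machinery by which a cell leaves G1 and commits to DNA synthesis. They were chosen by name: the E-type cyclins Ccne1 and Ccne2, their kinase Cdk2 and its activating phosphatase Cdc25a, the activator transcription factors E2f1, E2f2 and E2f3, their inhibitor Rb1, and Skp2 and Cks1b, which direct the destruction of a CDK inhibitor. Each of the 10 symbols matched 1 row of the table. The rule used names and no measured value, though earlier results of these data were known when the group was proposed. Polyadenylated RNA was sequenced from basal cells of the mammary gland of mice labelled C57BL/B6, untreated, that had been sorted as G0 (resting, outside the division cycle) or G1 (the growth phase before DNA synthesis). There were 4 libraries per phase, 1 of each phase in each of 4 runs, and the comparison of the phases asks which genes differ between resting and growing basal cells. The sources used here do not give the age of the animals, how many were used per library or the markers that separated the phases.

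In textbook accounts, growth signals raise the D-type cyclins, whose kinases phosphorylate the retinoblastoma protein encoded by Rb1. Phosphorylation frees E2F1, E2F2 and E2F3, which switch on genes for DNA synthesis and also Ccne1, Ccne2 and E2f1 themselves. Cyclin E with CDK2 then phosphorylates more of the retinoblastoma protein, and the SCF ubiquitin ligase with SKP2 and CKS1 marks the CDK inhibitor p27 for destruction, so that the switch holds itself on. Much of this control acts on proteins, which RNA counts do not measure.

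The promoters of these genes were read for the letters that E2F and related cell cycle factors are known to bind. RefSeq's table for GRCm38.p6 held a start site for 8 of the 10 genes, all but Ccne2 and Rb1. The 250 bases before the start site were searched on either strand. The E2F motif was taken as TTTCCCGC, TTTCGCGC, TTTGCCGC or TTTGGCGC, the CCAAT box as CCAAT and the cell cycle homology region, CHR, as TTTGAA. For E2f1 that start site lies 466 bases inside the GENCODE gene, so its searched stretch is within the annotated gene and not before it. The start sites of Cks1b and Ccne1 lie 92 and 44 bases inside their GENCODE genes. The TTTGAA matches of Cks1b therefore also fall within the annotated gene. An E2F match was present in 3 of the 8 (Cdk2, Cdc25a and E2f3), against 1.9% of all 32851 promoters. CCAAT was present in 6 of the 8, against 33.8% of all, and TTTGAA in 3 of the 8, against 16.0% of all. The 3 stretches with an E2F match are printed because their genes are also among those with the narrowest intervals for the G1 to G0 difference below. Rb1, whose interval was also narrow, could not be searched. Stretches of Cks1b and Ccne1 are printed because their levels differed most clearly between runs. Each printed stretch is 60 bases, 5′ to 3′ on the strand of the gene, with motif matches in capitals. A match on the other strand appears as its reverse complement.
Cdk2: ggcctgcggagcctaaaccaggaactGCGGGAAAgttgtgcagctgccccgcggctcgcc
Cdc25a: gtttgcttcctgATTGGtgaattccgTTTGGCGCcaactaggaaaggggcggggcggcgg
E2f3: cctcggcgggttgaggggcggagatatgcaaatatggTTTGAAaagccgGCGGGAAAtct
Cks1b: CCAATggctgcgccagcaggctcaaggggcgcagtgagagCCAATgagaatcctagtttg
Ccne1: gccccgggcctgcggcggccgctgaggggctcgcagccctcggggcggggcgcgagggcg
They lie at chr10:128705158-128705217 (Cdk2, minus strand), chr9:109875486-109875545 (Cdc25a, plus), chr13:29986064-29986123 (E2f3, minus), chr3:89418449-89418508 (Cks1b, minus) and chr7:38107535-38107594 (Ccne1, minus). The Ccne1 stretch holds none of the motif letters and is rich in G and C, as is the whole 250 bases before its start site (76.0% G or C). A match of letters is a description and was not tested for binding.

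The libraries held 5868728 to 15014104 counts. The G0 library of run 4 stood apart, with counts on 39094 genes against 20836 to 26614 in the others, and with Gm10800 taking 8.13% of its counts, where the top gene of each other library took 0.853% to 1.71%. Gm10800 was also the top gene in the G0 library of run 3 (1.19%) and the G1 library of run 4 (1.71%). The basal label was checked against 10 marker genes, led by Acta2, whose summed level was 20000 to 25200 CPM in G0 and 27600 to 30900 CPM in G1, against 1020 to 2150 CPM for 10 luminal markers. With the run as a block, edgeR called 2 of the 10 basal markers higher in G1, Acta2 and Cnn1, and 0 lower. That fit called 0.481% of all genes higher and 0.764% lower. Krt5, Krt14 and Trp63 had log2 fold changes of 0.05, 0.05 and -0.01 there.

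No gene of the group passed the test between G1 and G0. By edgeR's quasi-likelihood test on phase only, there were 0 calls among the 9 testable genes at an adjusted p of 0.05 and 0 at an unadjusted p of 0.05. Over all 15192 tested genes the same fit called 0% higher and 0% lower, and at an unadjusted p of 0.05 it held 1.03% higher and 1.77% lower. DESeq2 also called 0 of the 9, against 0.066% of all genes higher and 0.158% lower, and limma-voom 0 of the 9, against 0% and 0%. When the run was added as a replicate block, edgeR called 0.481% of all genes higher and 0.764% lower, and again 0 of the 9, of which Cks1b alone had an unadjusted p under 0.05, as did 6.58% of all genes upward and 5.69% downward. The ranges of the phases overlapped for all 10 genes, and of all tested genes 0.829% lay higher in G1 without overlap and 1.17% lower. The 9 tested had a median log2 fold change of 0.18, G1 over G0, in either fit, beside 0.00 over all tested genes (0.01 with the block), and 6 of 9 were positive, or 5 of 9 with the block. Of all tested genes 49.9% were positive, or 51.1% with the block. Without the G0 library of run 4, edgeR with the phase alone again called 0 of the 9 genes, and their median log2 fold change was 0.09. The sign of that median hung on single libraries, being -0.07 without the G1 library of run 3 and -0.01 without the G0 library of run 1. E2f2, at 37 counts over 8 libraries, fell below the count filter and was not tested. Nothing in the labels ties a run to an animal. The p-values therefore measure the spread between these libraries only, which may be technical in part.

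**Figure D1:**
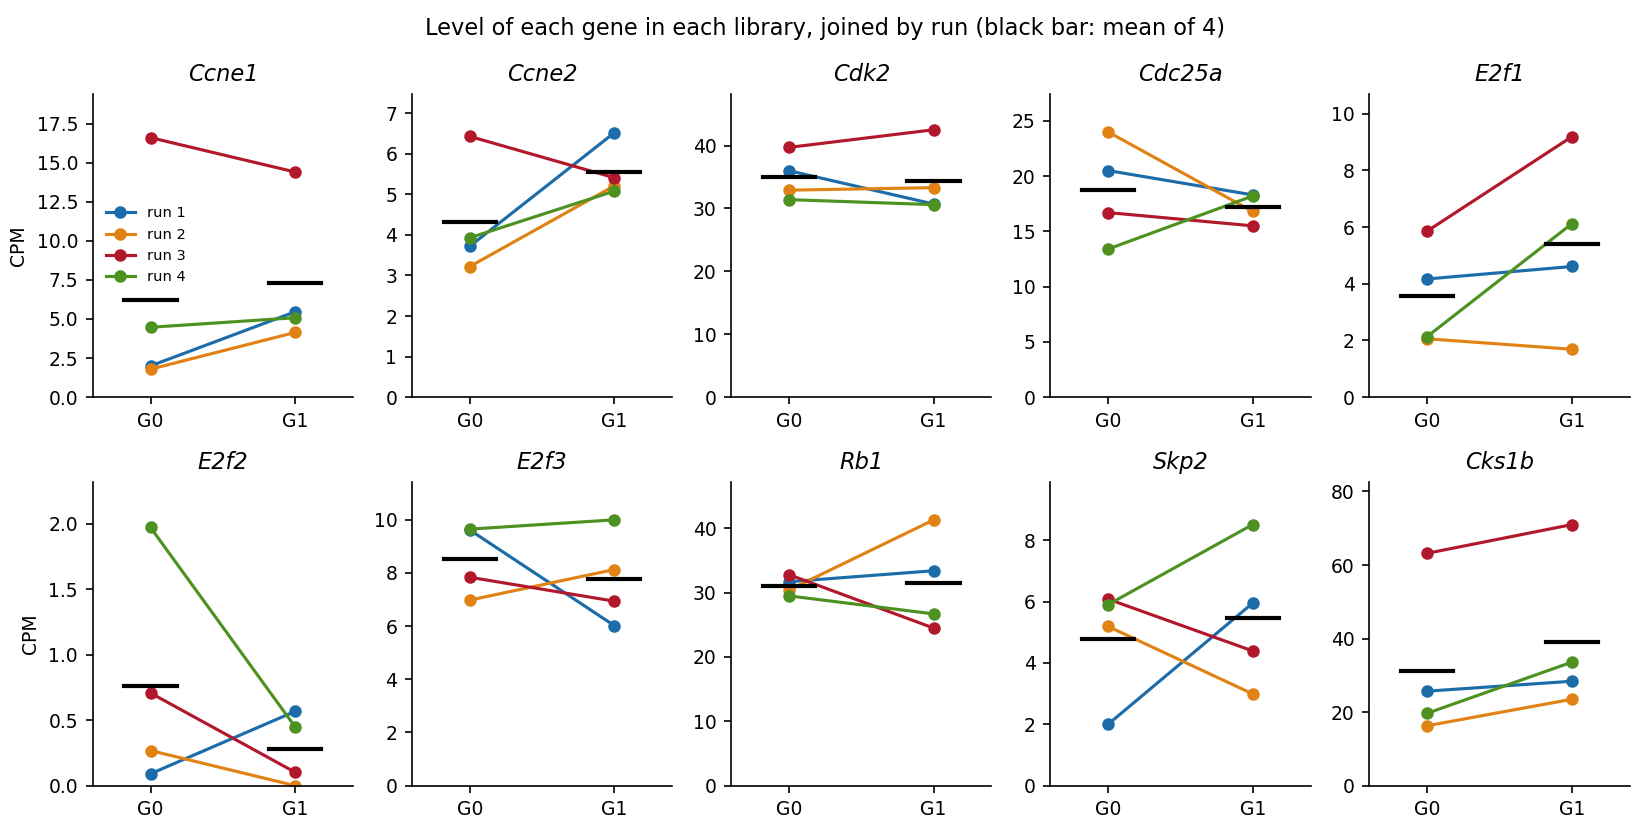
Level of each of the 10 genes in CPM (TMM-scaled, linear axes from 0) in the G0 and G1 library of each run, with lines joining the libraries of a run and black bars for the mean of 4. The ranges of the phases overlap in every panel, and run 3 lies above the other runs in both phases for Ccne1, Cdk2, E2f1 and Cks1b.

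Levels per length ordered the genes. CPM are counts relative to the TMM-scaled total of a library, and dividing by the kilobases of merged exons allows 1 gene to be set beside another. Cks1b, the shortest gene of the group, was the highest in all 8 libraries, at 27.7 ± 19.3 CPM per kilobase in G0 and 34.8 ± 19.2 in G1 (SD, n = 4). Cdk2, at 5.63 ± 0.588 in G0 and 5.51 ± 0.90 in G1, and Rb1, at 5.17 ± 0.24 and 5.24 ± 1.26, came next and did not differ beyond their spread. Ccne1, Cdc25a, E2f3, E2f1 and Ccne2 followed, with G0 means from 1.13 to 2.33 CPM per kilobase and overlapping ranges. Within single libraries Ccne1 ranked from 3 to 8 among the 10 genes, overlapping the ranks of Rb1, 2 to 4. Its highest value was 6.24 CPM per kilobase, in the G0 library of run 3. Skp2 stood at 0.608 ± 0.241 in G0 and 0.694 ± 0.301 in G1, and E2f2 was the lowest in all 8 libraries, at 0.155 ± 0.173 and 0.0572 ± 0.0555. Cdk2 and Rb1 were thus far more abundant as RNA than the ligase subunit Skp2. That subunit's partner Cks1b exceeded Skp2 by 4.42 to 6.76 on the log2 scale of CPM per kilobase within each library. Merged exons include those of rare isoforms, and levels under another choice of length were not computed.

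**Figure D2:**
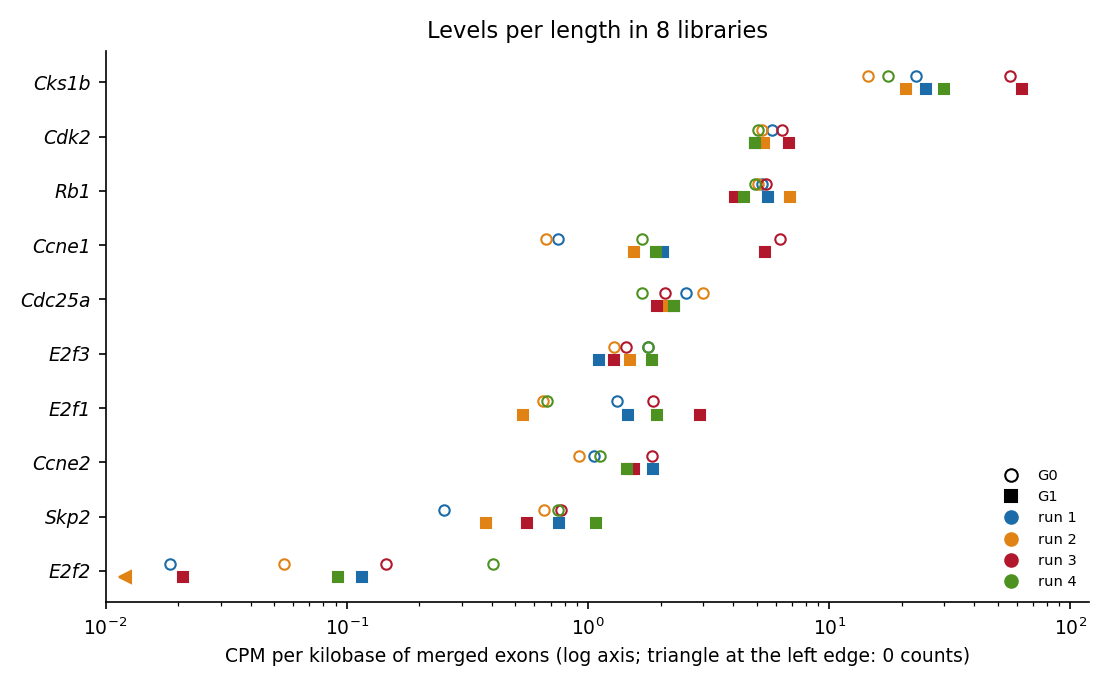
CPM per kilobase of merged exons (log axis) for each gene in 8 libraries, open circles for G0, filled squares for G1 and colours for runs. Cks1b lies to the right of all others, from 14.5 to 63.0, and E2f2 to the left, with a triangle at the edge for the 1 library with 0 counts.

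Ccne1 and Ccne2 encode the cyclins that activate CDK2 at the end of G1. Ccne1 (ENSMUSG00000002068, chromosome 7, 38097984 to 38107534, minus strand) stood at 2.0, 1.79, 16.6 and 4.47 CPM in the G0 libraries of runs 1 to 4. In the G1 libraries it stood at 5.46, 4.14, 14.4 and 5.08 CPM. Ccne1 was therefore higher in G1 in runs 1, 2 and 4, lower in run 3, and more different between run 3 and the rest than between the phases. The log2 ratios of G1 to G0 were 1.37, 1.13, -0.20 and 0.18 in runs 1 to 4. With the phase alone its log2 fold change was 0.21 ± 0.71 (SE, adjusted p = 1, edgeR), and with the run as a block 0.58 ± 0.29 (adjusted p = 0.422), with a 95% interval from 0.992-fold to 2.26-fold. Its value hung on run 3: without that run's G0 library the fit of phase alone gave 1.45, without that run's G1 library -0.36, and without the whole run the blocked fit gave 0.95, none of which passed.

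Ccne2 (ENSMUSG00000028212, chromosome 4, 11191351 to 11204779, plus strand) had 3.72, 3.22, 6.43 and 3.93 CPM in G0 and 6.52, 5.21, 5.41 and 5.08 CPM in G1. As for Ccne1, runs 1, 2 and 4 were higher in G1 and run 3 was lower. The log2 fold change was 0.36 ± 0.32 (SE, adjusted p = 1, edgeR), and the 95% interval ran from 0.789-fold to 2.08-fold. With the run as a block it was 0.40 ± 0.29 (SE, adjusted p = 0.629, edgeR). Of the 10 genes, Ccne2 had the largest share of its variation between the phases, 33.7% of the sum of squares of log2 CPM, and the smallest between runs, 31.4%. Per length, Ccne1 was above Ccne2 in 6 of 8 libraries, with log2 ratios from -0.45 to 1.77 and the highest values in both libraries of run 3. Ccne2 shares 609 exonic bases with Ints8 on the opposite strand, which had 4035 counts over the 8 libraries against 437 for Ccne2. The library kit keeps the strand, but whether reads were counted by strand is not stated in what was available here.

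Cdk2, the kinase itself (ENSMUSG00000025358, chromosome 10, 128697939 to 128705031, minus strand), had 36.0, 32.9, 39.7 and 31.4 CPM in G0 and 30.7, 33.3, 42.5 and 30.6 CPM in G1. Its levels were even across the phases, with 2 runs higher in G1 and 2 lower. The log2 fold change of -0.03 ± 0.18 (SE, adjusted p = 1, edgeR) had a 95% interval from 0.748-fold to 1.28-fold. The blocked fit gave -0.04 ± 0.14 (SE, adjusted p = 0.951, edgeR). Cdc25a, the phosphatase that removes inhibitory phosphates from CDK2 (ENSMUSG00000032477, chromosome 9, 109875579 to 109893895, plus strand), had 20.5, 24.0, 16.7 and 13.4 CPM in G0. In G1 it had 18.3, 16.8, 15.5 and 18.2 CPM, lower in 3 runs and higher in run 4. Its log2 fold change was -0.12 ± 0.22 (SE, adjusted p = 1, edgeR), with an interval from 0.660-fold to 1.28-fold. With the block Cdc25a was at -0.11 ± 0.18 (SE, adjusted p = 0.864, edgeR). With the phase alone, the intervals of Cdk2, Cdc25a, E2f3 and Rb1 excluded a 2-fold change in either direction. Those of the other 5 tested genes did not. With the run as a block, those of Skp2 (0.696-fold to 1.83-fold) and Cks1b (1.06-fold to 1.61-fold) also excluded it. The blocked interval of Ccne2, 0.873-fold to 1.99-fold, also excluded it, by a narrow margin. Cdk2 shares 34 exonic bases with Pmel, which had 383 counts against 2992 for Cdk2.

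None of the activator E2F genes passed the test, and their values did not lean 1 way. E2f1 (ENSMUSG00000027490, chromosome 2, 154559407 to 154569892, minus strand), itself a target of E2F, had 4.17, 2.06, 5.86 and 2.14 CPM in G0 and 4.61, 1.69, 9.19 and 6.12 CPM in G1. It was higher in G1 in 3 of 4 runs, most in run 4, with a log2 ratio there of 1.44. The log2 fold change of 0.57 ± 0.52 (SE, adjusted p = 1, edgeR) was the largest of the 9 with the phase alone, and its interval, 0.679-fold to 3.26-fold, was among the widest. In the blocked fit E2f1 was at 0.48 ± 0.32 (SE, adjusted p = 0.596, edgeR), with an interval from 0.882-fold to 2.21-fold. E2f3 (ENSMUSG00000016477, chromosome 13, 29906575 to 29986063, minus strand) had 9.62, 6.98, 7.84 and 9.65 CPM in G0 and 6.02, 8.13, 6.94 and 10 CPM in G1. 2 of the 4 runs went each way, and the log2 fold change was -0.13 ± 0.26 (SE, adjusted p = 1, edgeR). With the block E2f3 was at -0.15 ± 0.23 (SE, adjusted p = 0.86, edgeR). E2f2 (ENSMUSG00000018983, chromosome 4, 136172394 to 136196057, plus strand) had 1, 3, 10 and 11 counts in the G0 libraries and 8, 0, 1 and 3 in the G1 libraries. Since 0 counts allow up to 3, or 0.23 CPM in that library, most of these values lie near the limit of detection, and the 11 counts come from the G0 library of run 4, which stood apart. Per length, E2f3 and E2f1 changed places between libraries, E2f3 being the higher in 4 of 8, and each exceeded E2f2 in all 8.

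Rb1 encodes the pocket protein that holds the activator E2Fs in check (ENSMUSG00000022105, chromosome 14, 73183673 to 73325822, minus strand). It had 31.7, 30.4, 32.8 and 29.5 CPM in G0, the narrowest relative spread of the 10 genes in that phase. In G1 it had 33.4, 41.3, 24.5 and 26.7 CPM, on either side of the G0 values. The log2 fold change was 0.02 ± 0.20 (SE, adjusted p = 1, edgeR), with a 95% interval from 0.755-fold to 1.36-fold. The blocked fit gave -0.0025 ± 0.16 (SE, adjusted p = 0.998, edgeR). The phase held 0.0537% of the sum of squares of its log2 CPM. Rb1 shares 408 exonic bases with Lpar6 and 488 with Rcbtb2 on the opposite strand, which had 2714 and 3072 counts against 2748 for Rb1.

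Skp2, the substrate-binding subunit of the ligase (ENSMUSG00000054115, chromosome 15, 9111985 to 9155425, minus strand), had 2.0, 5.19, 6.08 and 5.90 CPM in G0 and 5.95, 2.99, 4.39 and 8.51 CPM in G1. It was higher in G1 in runs 1 and 4 and lower in runs 2 and 3, with a log2 fold change of 0.18 ± 0.43 (SE, adjusted p = 1, edgeR). With the block Skp2 was at 0.18 ± 0.34 (SE, adjusted p = 0.891, edgeR). Cks1b, the small adaptor that lets SKP2 grip p27 (ENSMUSG00000028044, chromosome 3, 89415472 to 89418383, minus strand), had 25.7, 16.3, 63.2 and 19.7 CPM in G0 and 28.4, 23.5, 71.0 and 33.6 CPM in G1. Cks1b was the 1 gene of the 10 with the same sign in all 4 runs, with log2 ratios of 0.15, 0.53, 0.17 and 0.77. Among all tested genes 11.3% were higher in G1 in all 4 runs and 9.44% lower in all 4, so 1 of 10 is near the background. With the phase alone its log2 fold change was 0.32 ± 0.47 (SE, adjusted p = 1, edgeR), which became 0.93 without the G0 library of run 3 and -0.14 without its G1 library. The blocked fit gave 0.38 ± 0.15 (adjusted p = 0.258), a 1.31-fold difference with an interval from 1.06-fold to 1.61-fold that did not pass after adjustment over all genes.

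**Figure D3:**
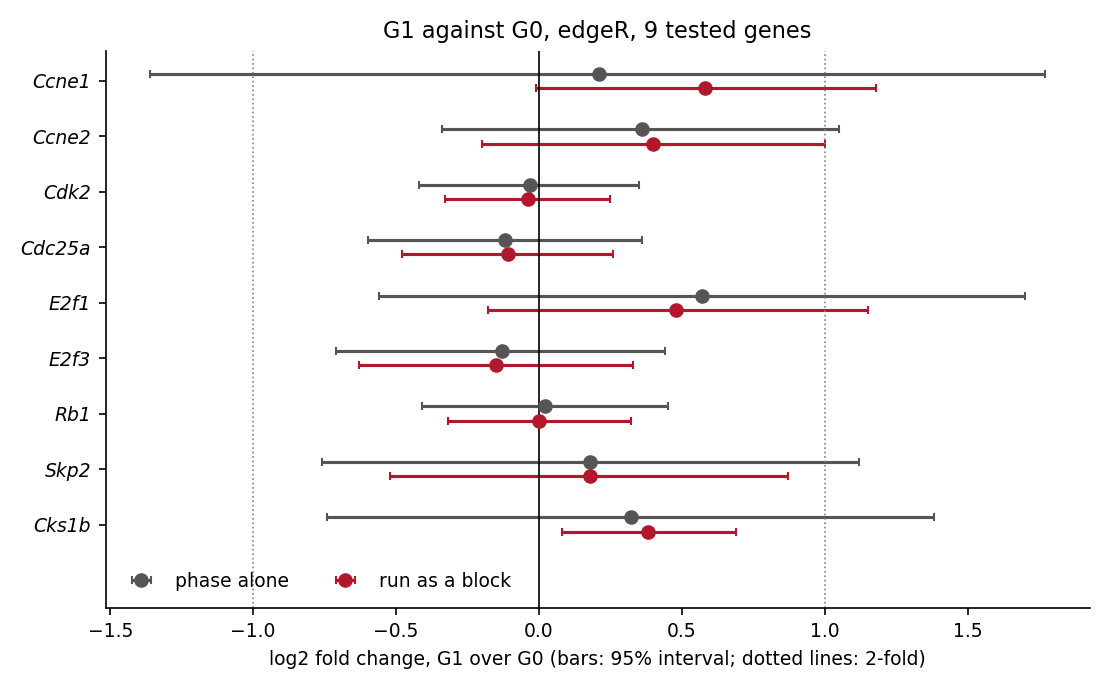
Log2 fold change of G1 over G0 for the 9 tested genes with 95% intervals from edgeR, in grey with the phase alone and in red with the run as a block. All grey intervals cross 0, those of Cdk2, Cdc25a, E2f3 and Rb1 stay between the dotted 2-fold lines, and the red interval of Cks1b lies between 0.08 and 0.69.

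The spread of log2 CPM over the 8 libraries was split into shares of the sum of squares. Runs take 3 of the 7 degrees of freedom, or 42.9%, and the phase 1, or 14.3%, so values near these are what no difference would give. The medians over all tested genes were 68.1% for runs and 5.84% for the phase. Runs held 88.5% for Cks1b, 85.5% for Cdk2, 81.4% for Ccne1 and 73.9% for E2f1, and the phase held 8.07%, 1.36%, 8.81% and 9.69%. For the other 6 genes runs held 31.4% to 46.9%, below that median. A joint edgeR test of the run terms, with the phase in the model, called 3 of the 9 tested genes. Ccne1 differed 5.35-fold between its highest run, run 3, and its lowest, run 2 (adjusted p = 2.65e-05), Cks1b 3.40-fold (adjusted p = 5.71e-07) and E2f1 3.67-fold (adjusted p = 0.0117), also between runs 3 and 2. Cdk2, despite its large share, differed only 1.32-fold between runs 3 and 4 and was not called (adjusted p = 0.314). Across all tested genes the same test called 35.6%, so 3 of 9 is no more than the background. Without run 3, 0 of the 9 were called, Ccne1 with an adjusted p of 0.475, Cks1b of 0.247 and E2f1 of 0.139, and 14.6% of all genes were called. Without run 2, E2f1 had an adjusted p of 0.161. Run is the word in the sample titles, and the sources used here do not say what a run was.

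**Figure D4:**
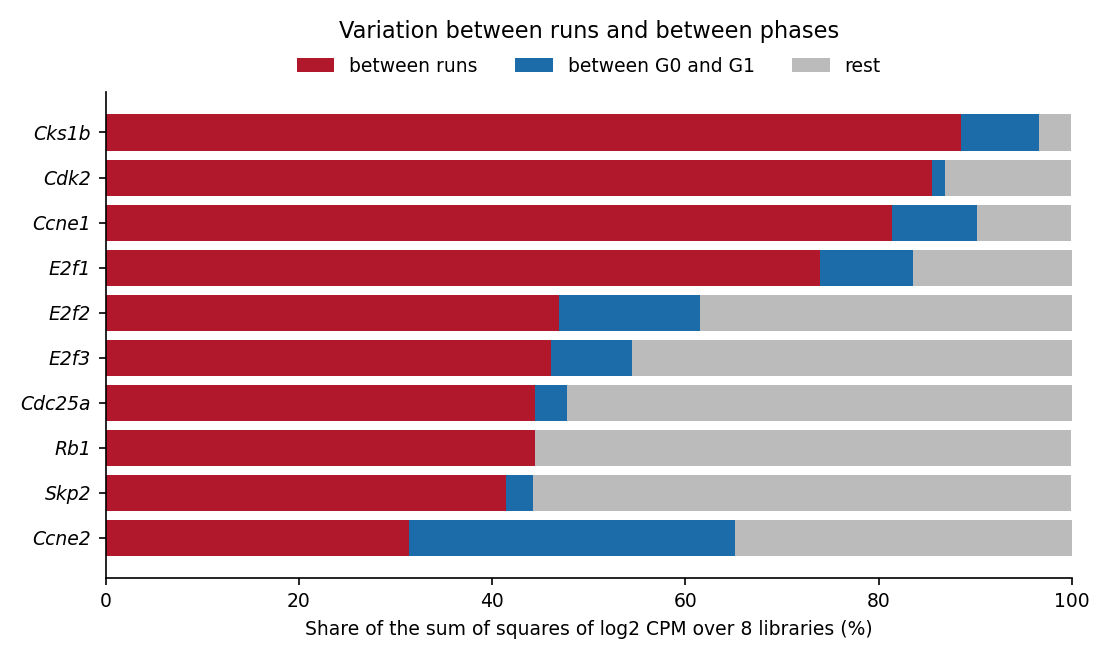
Share (%) of the sum of squares of log2 CPM over 8 libraries that lies between runs (red), between G0 and G1 (blue) and in the rest (grey), for each gene. Runs hold from 31.4% for Ccne2 to 88.5% for Cks1b, and the phase at most 33.7%, for Ccne2, beside 42.9% and 14.3% from the degrees of freedom alone.

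Other measures moved with run 3. Genes in the tercile of shortest merged exons, up to 2832 bases, had a median log2 difference of 0.27 between run 3 and the mean of the other runs, against -0.11 and -0.15 in the middle and longest terciles. Ccne1, with 2662 exonic bases, and Cks1b, with 1126, belong to the shortest tercile and E2f1, with 3154, to the middle one. Their own differences were larger, at 2.08, 1.48 and 1.19. The summed level of 8 fibroblast markers was 904 CPM in the G0 and 609 in the G1 library of run 3, against 208 to 445 elsewhere, and that of 10 luminal markers 2150 and 1900 CPM against 1020 to 1660. In these lists 0 markers were at 0 in all libraries. The part of gene length and of other cell types in the run differences was not tested. In bulk samples fewer cells of a type and less RNA per cell cannot be told apart.

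Of the proteins that work with this group, the cyclin D genes Ccnd1 and Ccnd2 were the ones that passed a test, in the fit with the run as a block. Ccnd2 also passed in DESeq2 with the phase alone (adjusted p = 0.00677). Ccnd3, the other D-type cyclin gene, did not pass (0.15 ± 0.13, SE, adjusted p = 0.695, edgeR with the block). A list of 35 partners and regulators (other E2F and DP factors, pocket proteins, CDK-activating kinase, the SCF core, CDK inhibitors, D-type and A-type cyclins and their kinases) had 33 tested genes. With the phase alone edgeR called 0 of them, with 2 higher and 0 lower at an unadjusted p of 0.05, where all genes had 1.03% and 1.77%. With the run as a block it called 2 higher, Ccnd1 at 0.87 ± 0.19 (SE, adjusted p = 0.0176) and Ccnd2 at 0.73 ± 0.11 (adjusted p = 0.000406), and 0 lower, beside 0.481% of all tested genes called higher and 0.764% lower. These cyclins act upstream of cyclin E, and each was higher in G1 in all 4 runs. Ccnd2 had 107 to 126 CPM in G0 and 168 to 217 CPM in G1, ranges that did not overlap. Cdkn1a, which encodes the cyclin E-CDK2 inhibitor p21, was lower in G1 in all 4 runs without passing (log2 fold change -0.33 ± 0.11 with the block, adjusted p = 0.14). The median of the 33 was 0.09 in either fit, with 22 positive, or 23 with the block, where 49.9% and 51.1% of all tested genes were positive.

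Of 30 genes that E2F factors are known to switch on, for origin licensing, nucleotide supply and replication, 28 could be tested and 0 were called in either edgeR fit. At an unadjusted p of 0.05 there were 1 higher and 0 lower with the phase alone and 4 higher and 1 lower with the block, against 6.58% and 5.69% of all genes with the block. The 3 with the smallest p in the blocked fit were Dut, the dUTPase, at 0.53 ± 0.17 (SE, adjusted p = 0.14), Uhrf1, a partner of the maintenance DNA methyltransferase, at 0.63 ± 0.25 (adjusted p = 0.273), and Tyms, thymidylate synthase, at 0.58 ± 0.24 (adjusted p = 0.305). Each of these was higher in G1 in all 4 runs, as were 4 of the 28 in total, while 1 was lower in all 4, beside 11.3% and 9.44% of all genes. The median over the 28 was 0.08, or 0.09 with the block, and the summed level of the 30 was 723 to 785 CPM in G0 and 726 to 824 CPM in G1. Transcripts of 10 proliferation markers, most of them genes of G2 and mitosis, were scarce. Their summed level was 4.92 to 19.7 CPM in G0 and 5.17 to 24.9 CPM in G1, and Mki67, the proliferation marker, stood at 0.635 to 3.46 and 0.537 to 2.69 CPM.

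Partners of the group also differed between runs. The run test called 10 of 33 partners and 11 of 28 E2F targets, 30.3% and 39.3%, near the 35.6% of all genes. Of those called, the following were picked after their values were seen. Cks2, the paralog of Cks1b, differed 13.7-fold between its highest run, run 3, and its lowest, with 25.7 and 24.8 CPM in the libraries of run 3 and 1.63 to 6.72 elsewhere (adjusted p = 2.41e-09, edgeR). Cdkn1b, which encodes p27, the inhibitor that SKP2 and CKS1 mark for destruction, had 17.9 and 15.8 CPM in run 3 and 4.38 to 7.5 elsewhere (adjusted p = 4.70e-05). Among the targets, Pcna, the sliding clamp of replication, was highest in run 3 (adjusted p = 2.65e-06), and the licensing helicase genes Mcm2 and Mcm4 were lowest there, at 1.98 to 2.76 and 42.5 to 43.4 CPM against at least 11.8 and 85.5 elsewhere. Run 3 was thus high for Ccne1, Cks1b, Cks2, Cdkn1b and Pcna and low for Mcm2 and Mcm4, in both phases. They were picked for standing out in run 3, so nothing follows from their losing the call without it. Without run 3, 5 of 33 partners and 2 of 28 targets were called, or 15.2% and 7.14%, against 14.6% of all genes. Among these were Cdk1, the mitotic kinase, highest in run 4 (adjusted p = 4.81e-06 without run 3), E2f8, a repressor E2F (adjusted p = 0.00253), and Mcm5, a licensing helicase gene (adjusted p = 0.00246). Cdk1 had 1 count in each G0 library of runs 1 and 2 and 4 in the G1 library of run 1, near the limit of detection. In run 4 it had 15 counts in the G0 library, which stood apart, and 47 in the G1 library.

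**Figure D5:**
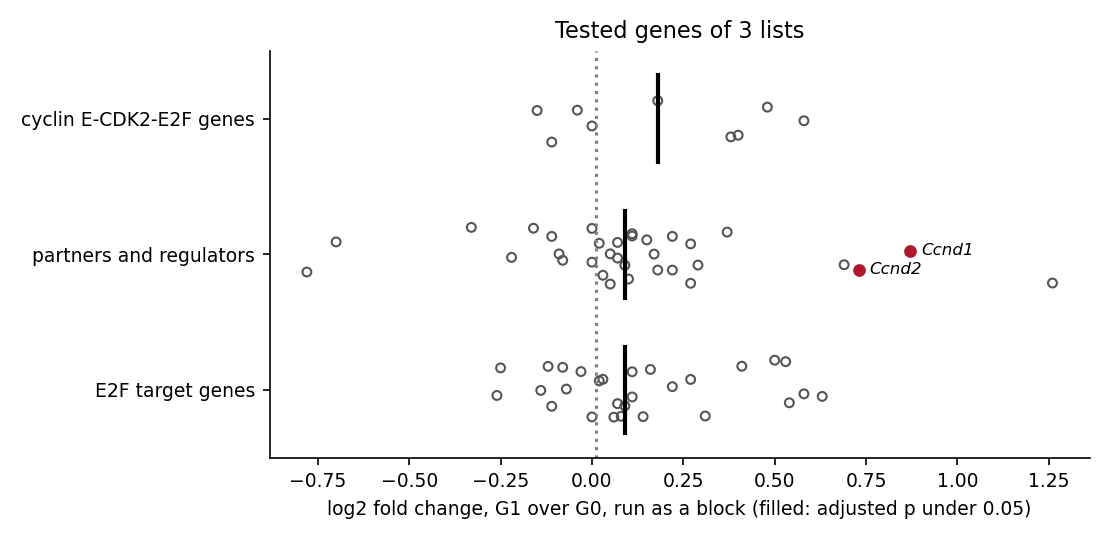
Log2 fold change of G1 over G0 in the blocked edgeR fit for the 9 tested genes of the group, 33 partners and 28 E2F targets; filled points have an adjusted p under 0.05, black bars are list medians and the dotted line is the median of all tested genes, 0.01. Ccnd1 and Ccnd2 are the filled points, and the medians are 0.18, 0.09 and 0.09.

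Markers of other cell types also moved with the phase. All 12 endothelial markers had a negative fold change and 11 were called lower in the blocked fit, with a summed level of 184 to 341 CPM in G0 and 41.7 to 150 CPM in G1, beside 0.764% of all tested genes called lower. Of the fibroblast markers 4 of 8 were called lower (Col1a1, Col1a2, Lum and Pi16), while their summed level was 208 to 904 CPM in G0 and 243 to 609 CPM in G1 and was higher in G1 in 3 of 4 runs. Dcn, the most abundant of them, was at 0.58 ± 0.16 (SE, adjusted p = 0.0973, edgeR with the block), and DESeq2 with the block called it higher (adjusted p = 0.0283). Of 3 tested adipocyte markers 1 was called lower (summed level 150 to 436 CPM in G0, 30.7 to 209 in G1), and of 4 immune (28.2 to 70.9, 26.9 to 55.1), 5 pericyte (24.8 to 55.2, 16.9 to 30.5) and 9 luminal ones 0. These sums are over all 6 adipocyte, 8 immune and 6 pericyte markers, tested or not. The 5 erythrocyte genes were too low to test, at 0.537 to 3.22 CPM in sum in G0 and 0.283 to 27.1 in G1, the highest in run 3. Whether the share of such cells bears on the levels of the cyclin E, CDK2 and E2F genes was not tested.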

How the data were processed

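The authors deposited 1 table of raw counts, a whole number per Ensembl gene and library. The submitters' processing notes name Trimmomatic 0.35, STAR 2.5.2a and mm10. How reads were counted, with which program, strand setting and annotation, is not given in the sources used here. Symbols, positions and exon lengths came from GENCODE M21 (GRCm38, also called mm10), which held 54808 of the 54837 identifiers.

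G1 was compared with G0 by edgeR's quasi-likelihood test (edgeR 4.0.16, R 4.3.3, robust, two-sided) on TMM-scaled counts after filterByExpr by phase, with no term but phase. Benjamini-Hochberg adjustment ran over all 15192 tested genes. Standard errors were derived from each log2 fold change and its F statistic. A prior count of 2 was added for log2 ratios within runs. Deviations from the phase means correlated at 0.668, 0.47, 0.638 and 0.437 between the libraries of the same run and at most 0.0971 otherwise. The run numbers in the titles therefore pair the libraries, and a fit with the run as a block is also given for each tested gene of the group. Between replicates of a phase, chi-square per degree of freedom was 21.7 to 95.1, so no library was a copy.

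Alternatives were RLE factors, other count filters, DESeq2 1.42.0, limma-voom (limma 3.58.1), the block, other prior counts (0.5 and 5) and each library or run left out. The test between runs and its alternatives were added after the data were seen. On simulated counts for G1 against G0 over 15192 genes, edgeR recovered 9% of 2-fold and 64% of 4-fold changes with the phase alone, and 76% and 88% with the block. Of its calls there, 0% were false with the phase alone and 6.82% with the block, above the 5% aimed at. The simulated run effects were the run means of the data, and the spread was estimated with the run in the model. Changes were placed on random genes of any level, so these shares do not give the recovery for the genes of the group. The genes and lists were chosen with earlier results of these data known. Named list genes are those called in either fit and the 3 of each list with the smallest p in the blocked fit. Ccnd3 was added beside the other D-type cyclin genes. For the marker lists the rule took the gene with the highest mean CPM and those called, and not all of these are named.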

Additional observations from a re-analysis of the deposited data

Results flagged for a closer look

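Ccne1 in the G1 library of run 3 stood at 14.4 CPM, while the other 3 G1 libraries lay between 4.14 and 5.46 CPM. The gap to the nearest was 0.872 of the whole range of the phase, past Dixon's critical value for 4 samples. Of the 20 sets of 4 libraries examined (10 genes in each phase) this was the only 1 past that value, and chance gives about 1 in 20. The G0 library of the same run was also the highest of its phase, at 16.6 CPM.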

How the results depend on the processing

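Under all alternatives tried 0 of the 9 tested genes were called in either direction, and the lowest adjusted p of any of them was 0.239. Several small fold changes crossed 0. Without a filter on low counts Cdk2 was at 0.0058 on the log2 scale, and with at least 10 counts in every library Rb1 was at -0.0037. With the replicate block Rb1 was at -0.0025, and in DESeq2 with that block at -0.0063. With the phase alone and 1 library left out, Ccne1 ranged from -0.36 to 1.45, Cdk2 from -0.15 to 0.04, Cdc25a from -0.25 to 0.03, Rb1 from -0.13 to 0.13, Skp2 from -0.10 to 0.40, Cks1b from -0.14 to 0.93 and the median of the 9 from -0.07 to 0.39. The lowest values of Ccne1, Cks1b and the median came without the G1 library of run 3. With the block and without run 1, Cdk2 was at 0.03, E2f3 at 0.04, Rb1 at -0.03 and Skp2 at -0.25, and without run 2, Cdc25a was at 0.04 and Rb1 at -0.16.

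Counts over all genes moved from 0 higher and 0 lower to 14 and 73 without a filter, 10 and 24 in DESeq2, 73 and 116 with the replicate block, 97 and 136 in DESeq2 with the block and 63 and 134 in limma-voom with the block. With the block they were 99 and 175 without run 1, 63 and 90 without run 2, 73 and 144 without run 3 and 21 and 76 without run 4. The pairing changed no call among the 9 genes. Genes that differed between runs numbered 5411 in all and 3 of the 9, and without run 3, 2231 and 0. The causes of these shifts were not tested. Depth limits E2f2, and the widest intervals with the phase alone belong to Ccne1, E2f1 and Cks1b.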
